A study of Mus musculus with 2 samples.

Results

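Short loops are the chromatin loops whose anchors, measured from start to start, lie at most 100 kb apart. They were taken from the loop lists of a Hi-C study of the mouse uterus, a method that ligates and sequences pairs of DNA segments found near each other in the nucleus. The members were chosen by length alone, and there were 4975 in estrus and 4979 in diestrus, or 9954 of the 50371 loops of both lists. The estrus library (n = 1) and the diestrus library (n = 1) were each made from uteri of intact, untreated mice of the outbred CD-1 stock at 2 months of age. The labels do not say how many animals gave a library. With 1 library per stage no difference between stages could be tested, so there are no p-values. All intervals are at 95%. Those of contacts and of ratios cover counting error only, those of shares and medians take loops as separate draws, and differences among animals are covered by none. For how many of all short loops the intervals of the stages were apart is not given. Intervals that are apart therefore do not set a named loop off from the others. A loop list does not measure expression, so the labelled tissue could not be checked against its marker genes.

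Chromatin loops form when cohesin, a ring-shaped complex, extrudes a strand of DNA until it meets a barrier, in most cases the insulator protein CTCF bound in an orientation that faces the loop. Loops also join promoters to enhancers or to other promoters. Estrus follows the estrogen peak of the cycle, and diestrus is the stage in which progesterone acts on the uterus. Estrogen acts through the receptor encoded by Esr1, and Greb1 is among the genes it is known to induce.

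A few promoters in short-loop anchors are printed because the loops at Esr1 and Greb1, described below, joined annotated promoters of 1 gene. Each is 300 bases long, from 250 bases before to 50 after an annotated start, on GRCm38.p6, the assembly of mm10, from RefSeq. Each is written 5′ to 3′ in the direction of the gene. Capitals mark the letters GGTCA or, on the opposite strand, TGACC, which form one arm of an estrogen response element.
Esr1 promoter in the left anchor, chr10:4611739-4612038, plus strand: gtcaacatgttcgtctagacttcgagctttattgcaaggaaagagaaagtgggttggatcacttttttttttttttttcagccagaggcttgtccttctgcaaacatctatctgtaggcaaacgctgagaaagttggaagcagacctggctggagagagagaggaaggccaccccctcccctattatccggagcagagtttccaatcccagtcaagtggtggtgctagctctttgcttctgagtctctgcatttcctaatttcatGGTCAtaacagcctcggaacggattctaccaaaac
Esr1 promoter in the right anchor, chr10:4709908-4710207, plus strand: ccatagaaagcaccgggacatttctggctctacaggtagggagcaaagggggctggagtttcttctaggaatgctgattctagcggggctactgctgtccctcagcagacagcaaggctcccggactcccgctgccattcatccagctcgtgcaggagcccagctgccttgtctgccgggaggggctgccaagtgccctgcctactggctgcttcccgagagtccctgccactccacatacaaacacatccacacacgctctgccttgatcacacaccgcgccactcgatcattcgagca
Greb1 promoter in the left anchor, chr12:16757190-16757489, minus strand: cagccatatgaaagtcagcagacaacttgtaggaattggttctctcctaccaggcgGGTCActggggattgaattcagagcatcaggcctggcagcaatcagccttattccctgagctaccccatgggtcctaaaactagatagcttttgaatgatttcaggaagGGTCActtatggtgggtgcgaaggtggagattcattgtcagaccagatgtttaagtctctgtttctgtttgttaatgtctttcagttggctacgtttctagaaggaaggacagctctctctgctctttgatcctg
Greb1 promoter in the right anchor, chr12:16800837-16801136, minus strand: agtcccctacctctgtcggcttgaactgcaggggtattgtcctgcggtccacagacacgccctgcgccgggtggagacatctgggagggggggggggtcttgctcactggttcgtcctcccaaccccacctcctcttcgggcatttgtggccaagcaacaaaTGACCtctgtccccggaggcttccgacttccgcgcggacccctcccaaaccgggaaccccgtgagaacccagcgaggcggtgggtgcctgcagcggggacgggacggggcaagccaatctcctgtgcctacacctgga

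The left Esr1 promoter held 1 such arm and the right Esr1 promoter none, while the left Greb1 promoter held 2 and the right Greb1 promoter 1. The arm is short and common: it stood in 37.2% (35.6 to 38.9%) of 3259 promoters in short-loop anchors and in 39.5% of all 21045 promoters searched. The full palindrome, GGTCA and TGACC with NNN between them, stood in none of these 4 promoters, in 1 of the 3259 and in 11 of the 21045.

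The next set shows the core of the CTCF motif, searched as CCANNAG followed directly by NNGGC (N, any base) on both strands, in capitals. It holds the strongest short loops called in both libraries, with at least 50 contacts in each, that have this core in a promoter within an anchor, and it was chosen after the values were seen.
Apmap promoter in the left anchor, chr2:150608518-150608817, minus strand: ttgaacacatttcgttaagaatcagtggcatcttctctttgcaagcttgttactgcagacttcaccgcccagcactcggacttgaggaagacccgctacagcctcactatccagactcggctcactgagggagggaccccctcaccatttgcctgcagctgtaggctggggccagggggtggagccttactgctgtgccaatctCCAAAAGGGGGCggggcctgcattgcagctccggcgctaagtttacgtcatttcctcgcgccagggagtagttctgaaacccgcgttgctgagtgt
Ube2l3 promoter in the left anchor, chr16:17201443-17201742, minus strand: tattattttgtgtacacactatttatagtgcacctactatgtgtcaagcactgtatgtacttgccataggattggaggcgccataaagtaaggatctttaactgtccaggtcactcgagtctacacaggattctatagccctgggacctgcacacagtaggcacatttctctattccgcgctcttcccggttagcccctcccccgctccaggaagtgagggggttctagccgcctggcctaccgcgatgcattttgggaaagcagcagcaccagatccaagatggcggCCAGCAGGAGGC
Ndufa6 promoter in the left anchor, chr15:82354242-82354541, minus strand: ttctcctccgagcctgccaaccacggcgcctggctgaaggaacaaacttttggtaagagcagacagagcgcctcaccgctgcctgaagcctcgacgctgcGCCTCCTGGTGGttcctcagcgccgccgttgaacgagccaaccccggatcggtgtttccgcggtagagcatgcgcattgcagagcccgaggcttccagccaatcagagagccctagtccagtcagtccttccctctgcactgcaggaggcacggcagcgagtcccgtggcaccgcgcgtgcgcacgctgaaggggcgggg
Igsf9 promoter in the right anchor, chr1:172481963-172482262, plus strand: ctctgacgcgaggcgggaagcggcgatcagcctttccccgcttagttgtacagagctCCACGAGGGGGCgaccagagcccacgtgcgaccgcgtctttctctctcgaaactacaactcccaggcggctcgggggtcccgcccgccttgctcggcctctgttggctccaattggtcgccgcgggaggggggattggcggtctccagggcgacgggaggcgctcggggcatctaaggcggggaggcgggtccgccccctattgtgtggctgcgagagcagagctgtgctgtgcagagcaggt

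Apmap, which encodes a membrane protein of fat cells, stood at the left anchor of a 70-kb loop with 836 contacts (780 to 895) in estrus and 805 (750 to 863) in diestrus. It held 6.56 times the contacts of its local background in estrus and 6.63 times in diestrus. At Ube2l3, a gene for a ubiquitin-conjugating enzyme, a 70-kb loop held 782 contacts (728 to 839) in estrus and 832 (776 to 891) in diestrus. At Ndufa6, which encodes a subunit of respiratory complex I, the 60-kb loop held 395 (357 to 436) in estrus and 524 (480 to 571) in diestrus. Igsf9, an adhesion gene, stood at the right anchor of a 70-kb loop with 584 (538 to 633) in estrus and 543 (498 to 590) in diestrus. At these 4 genes the intervals of the stages overlapped except at Ndufa6, where diestrus was higher.

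The core was found in 3.31% (2.73 to 3.99%) of the 3259 promoters in short-loop anchors. It was found in 2.84% (2.31 to 3.46%) of promoters in anchors of longer loops only, and in 2.04% (1.82 to 2.29%) of promoters in no anchor. Over all promoters the share was 2.37%. The interval for short loops did not overlap that for promoters in no anchor, but it did overlap that for longer loops. Where a promoter at a left anchor held the core, the core lay on the plus strand in 28 of 48 cases, or 58.3% (43.2 to 72.4%). At right anchors it did in 20 of 57, or 35.1% (22.9 to 48.9%). The core pointed into the loop more often than out of it at both anchors, although the intervals of the 2 anchors overlapped and that of left anchors includes equal shares. In the printed set only Ndufa6 has the core pointing inward, so these 4 do not stand for the rest. A match describes letters and is no evidence of a bound factor.

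The libraries held nearly the same number of short loops, at 0.999 times as many in estrus as in diestrus, while longer loops were fewer in estrus, 19156 against 21261, or 0.901 times. Short loops made up 20.62% of the estrus list and 18.97% of the diestrus list, and they held 34.9% of contacts at called loops in estrus and 32.5% in diestrus. The median short loop held 258 contacts (253 to 262) in estrus and 258 (253 to 262) in diestrus, against 101 (99 to 102) in estrus and 103 (101 to 104) in diestrus at longer loops. Strength, the observed contacts over those expected from the ring of pixels around the loop, had a median of 2.64 (2.60 to 2.67) in estrus and 2.61 (2.58 to 2.64) in diestrus. Longer loops had medians of 3.66 (3.63 to 3.69) in estrus and 3.45 (3.43 to 3.48) in diestrus. Short loops thus held more contacts than longer ones and stood less far above their background. Their expected contacts had medians of 88.7 in estrus and 89.9 in diestrus, against 28.7 in estrus and 30.8 in diestrus at longer loops. Strength below 2.5 was measured for 44.0% of short loops in estrus and 44.8% in diestrus, against 15.3% in estrus and 18.2% in diestrus for longer loops.

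The shortest loops listed spanned 50 kb, which was also the most common short length, with 1350 loops in estrus and 1285 in diestrus. From 60 kb to 100 kb each step of 10 kb held 690 to 765 loops in estrus and 713 to 758 in diestrus. The 50-kb loops were the weakest, with a median strength of 2.41 (2.38 to 2.45) in estrus and 2.39 (2.35 to 2.43) in diestrus. Loops of 100 kb, just inside the limit, had medians of 2.88 in estrus and 2.82 in diestrus, and those of 110 kb, just outside it, 2.93 in estrus and 2.82 in diestrus. No step was seen at the limit itself. The 50-kb loops also rested on fewer enriched pixels, with a median of 2 in both libraries, against 4 at 60 kb.

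**Figure D1:**
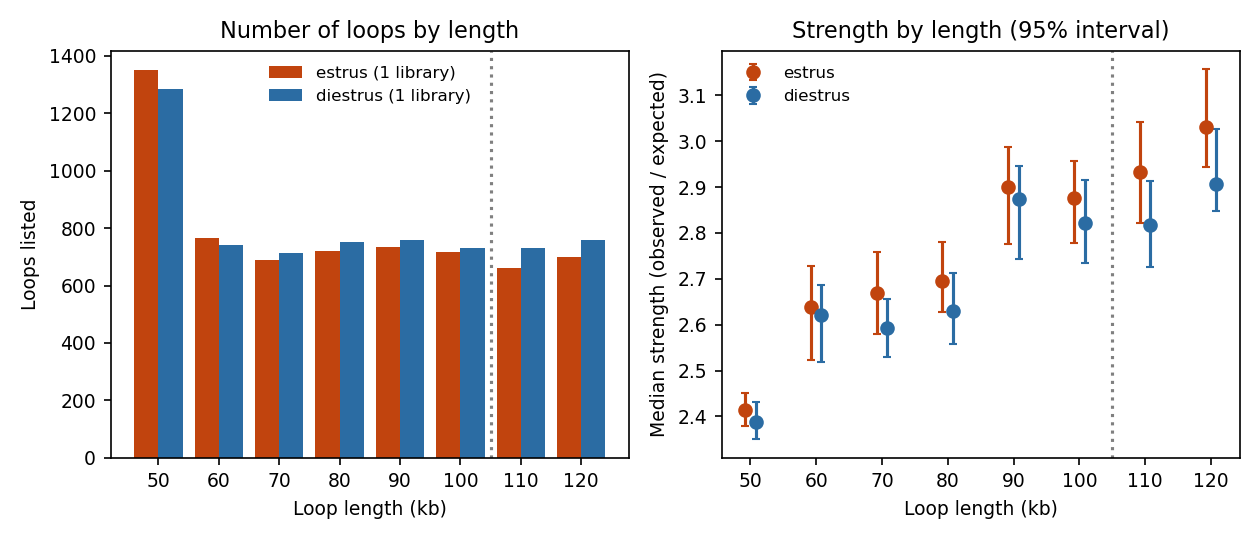
Number of loops (left) and median strength with its 95% interval (right) for each loop length from 50 to 120 kb, in the estrus and diestrus libraries (1 each); the dotted line marks the 100-kb limit. Loops of 50 kb are the most numerous, at 1350 in estrus and 1285 in diestrus, and the weakest, at 2.41 in estrus and 2.39 in diestrus.

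The stages shared most of their short loops. A loop was counted as found when the other list held a loop of any length with both anchor starts at most 1 bin (10 kb) away. By this count the diestrus list held 3771 of the estrus loops, a share of 75.8% (74.6 to 77.0%), and the estrus list held 3771 of the diestrus loops, a share of 75.7% (74.5 to 76.9%). Over loops of every length the shares were 78.2% in estrus and 71.9% in diestrus, and over longer loops 78.8% in estrus and 71.1% in diestrus. Nearly equal numbers were found from either side among longer loops too, 15101 in estrus and 15106 in diestrus. The shares therefore follow the numbers of loops listed, and the lower share of longer diestrus loops restates their larger number. In 3393 cases the loop lay in identical bins. Of the short loops found, only 30 in estrus and 28 in diestrus had a nearest match longer than 100 kb.

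Sharing followed strength. In the weakest of 10 equal classes of short loops, 38.8% (34.5 to 43.3%) of estrus loops and 44.3% (39.8 to 48.8%) of diestrus loops were found in the other list. In the strongest class the shares were 98.6% (97.1 to 99.4%) in estrus and 98.4% (96.9 to 99.3%) in diestrus. Loops found in both had a median strength of 2.94 (2.89 to 2.98) in estrus and 2.87 (2.81 to 2.91) in diestrus, and loops of a single list 2.18 (2.16 to 2.20) in estrus and 2.17 (2.15 to 2.19) in diestrus. A loop missing from a list may still have had contacts, since only called loops are listed. Of the 1204 short loops in the estrus list alone, 31.2% had both anchors within 1 bin of anchors in use in diestrus, 57.4% had 1 such anchor and 11.5% none. Of the 1208 in the diestrus list alone the shares were 35.2%, 50.8% and 14.1%.

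**Figure D2:**
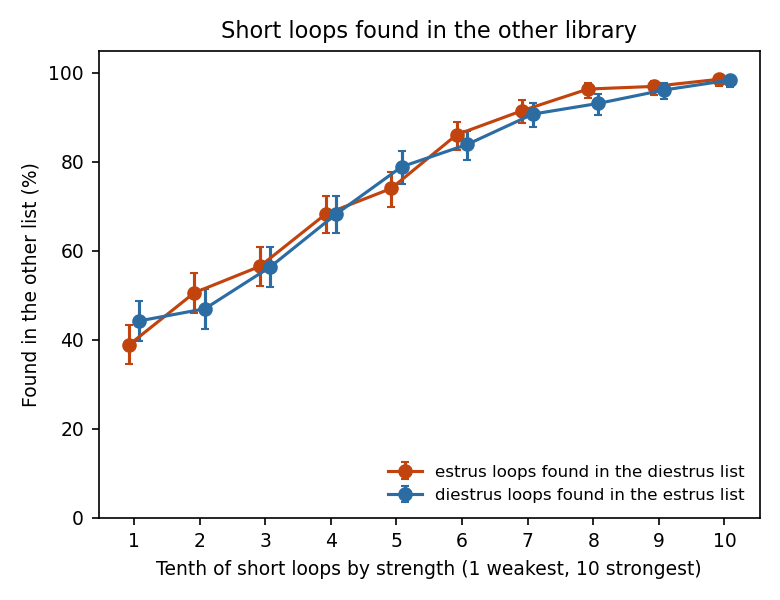
Share of short loops found in the other library (percent, with 95% Clopper-Pearson intervals) in 10 equal classes of strength, from the weakest to the strongest, for estrus and diestrus loops. In the weakest class the share is 38.8% in estrus and 44.3% in diestrus, and in the strongest 98.6% in estrus and 98.4% in diestrus.

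Of the 10 strongest named loops of a single list, 5 had a loop in the other list that differed at 1 anchor by 20 kb. Among loops with at least 50 contacts and a gene end in an anchor, the strongest in the estrus list alone lay at Kifc3, a kinesin gene on chromosome 8, with 363 contacts over 90 kb and a strength of 7.86. The nearest diestrus loop had the same right anchor and a left anchor 20 kb further in, with 385 contacts (347 to 425) and a strength of 2.26. The next were at Krr1, a ribosome-biogenesis gene (strength 5.68), at Creb3l1, which encodes a transcription factor of the secretory pathway (5.47), at Ngdn and Ap1g2 (4.69), and at Esr1 (4.68). Creb3l1, Ngdn and Esr1 also had a diestrus loop that differed at 1 anchor by 20 kb, so with a tolerance of 2 bins they would count as found.

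In the diestrus list alone the strongest lay at Ceacam1, an adhesion gene, with 455 contacts over 50 kb and a strength of 6.59, and at Klf13, a Krüppel-like factor gene, with 532 over 80 kb and 6.17. Osbpl5, which encodes an oxysterol-binding protein, followed with 748 contacts and 5.59, then Tex101 with 113 and 5.16 and Cox4i2, for a cytochrome c oxidase subunit, with 538 and 4.75. The first 4 of these 5 genes lie on chromosome 7. Chromosome 7 held 319 short loops in estrus and 353 in diestrus, and 858 longer loops in estrus and 1095 in diestrus, the lowest ratio of longer loops of any chromosome at 0.784. The nearest estrus loop to those at Ceacam1, Osbpl5 and Tex101 was 120 kb to 150 kb away at its farther anchor, and to that at Klf13 30 kb away.

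Where the libraries both had the loop, its strength was close. The 3741 pairs of short loops had log2 ratios of strength (estrus over diestrus, centred) with an SD of 0.21 across pairs, where counting error alone gave 0.13. Past 1.5-fold, 39 pairs (1.04%) were stronger in estrus and 25 (0.668%) in diestrus. Over pairs of every length these shares were 1.49% in estrus and 1.41% in diestrus, so the short loops did not exceed the background. In identical bins, 11 of 3393 short pairs (0.324%) were past 1.5-fold stronger in estrus and 10 (0.295%) in diestrus, against 0.696% in estrus and 0.714% in diestrus over all lengths. Counting error moved with this difference, with an SD of 0.13 at the 3741 short pairs and 0.20 over pairs of every length, and its part was not tested. The median log2 ratio of expected contacts, estrus over diestrus, was -0.02 at short pairs and -0.10 at longer pairs.

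**Figure D3:**
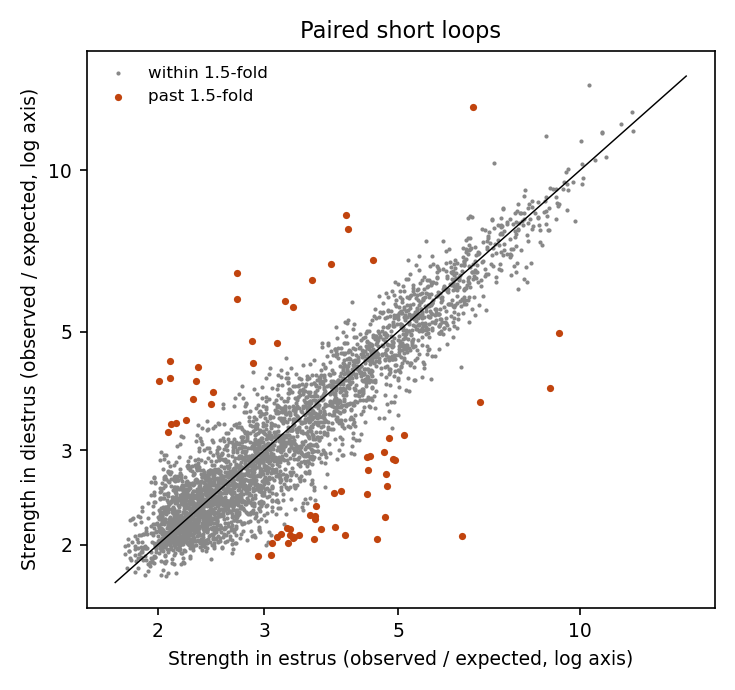
Strength of each of the 3741 paired short loops in estrus (horizontal) and diestrus (vertical), as observed over expected contacts on log axes, with the line of equal strength. Pairs past 1.5-fold are marked, 39 stronger in estrus and 25 in diestrus.

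The named pairs with the largest ratios lay in neighbouring bins, where the expected contacts differ as well. In identical bins, loops with no gene end in an anchor, predicted genes aside, had log2 ratios of up to 1.17 on chromosome 8 and down to -1.09 on chromosome 16. Expected contacts differed in identical bins too. The chromosome 8 loop held 205 contacts at a strength of 8.92 in estrus and 194 at 3.92 in diestrus. That on chromosome 16 held 116 at 2.10 in estrus and 309 at 4.42 in diestrus. The loop between Pvr, which encodes a nectin-like adhesion receptor, and Igsf23 on chromosome 7 held 220 contacts at a strength of 6.38 in estrus, and 158 at 2.08 in diestrus in the next bin. The loop between the complement protease genes C1rb and C1s2 held 113 contacts at 2.10 in estrus and 111 at 4.10 in diestrus, so its contacts were alike and its background was not. In the same direction, the loop from Tmprss13 to Fxyd2 had strengths of 2.33 in estrus and 4.29 in diestrus, and that from Csrp1 to the troponin gene Tnni1 3.87 in estrus and 6.69 in diestrus. In identical bins, the largest ratio at a loop with a gene end, predicted genes aside, was at Tert, the telomerase reverse transcriptase gene. It was chosen after the values were seen. Its 50-kb loop on chromosome 13 held 357 contacts (321 to 396) in estrus and 173 (148 to 201) in diestrus, a centred log2 ratio of 0.77 (0.50 to 1.04). In the other direction, a loop at Mb21d2 held 168 (144 to 195) in estrus and 287 (255 to 322) in diestrus, a log2 ratio of -0.66 (-0.94 to -0.38). For both the intervals of the stages were apart.

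Genes stood at short loops more often than at longer ones. An end of a protein-coding gene lay in both anchors of 15.7% (14.7 to 16.7%) of short loops in estrus and 16.2% (15.2 to 17.3%) in diestrus, against 7.54% (7.17 to 7.92%) in estrus and 7.62% (7.26 to 7.98%) in diestrus for longer loops. A gene end in 1 anchor was found at 42.6% of short loops in estrus and 41.7% in diestrus, and at 33.7% of longer loops in estrus and 32.9% in diestrus. Of the anchors of short loops, 37.0% in estrus and 37.1% in diestrus held a gene end. Of those of longer loops 24.4% in estrus and 24.1% in diestrus did. Of all 255153 bins of the genome 12.5% held one. Gene density moved with this difference: the median within 500 kb of a loop was 12 protein-coding genes per Mb at short loops and 6 at longer loops in both libraries. Its part in the result was not tested. Between estrus and diestrus the intervals of each share at short loops overlapped.

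Both anchors held ends of different genes at 739 short loops in estrus and 769 in diestrus. The 2 ends of 1 gene were joined at 69 (1.39%) in estrus and 80 (1.61%) in diestrus, against 0.183% of longer loops in either library, which can only do so at long genes. Wholly inside 1 gene lay 493 short loops in estrus, or 9.91% (9.09 to 10.8%), and 497 in diestrus, or 9.98% (9.16 to 10.8%), against 4.16% of longer loops in estrus and 4.72% in diestrus. A loop can lie inside only a gene longer than itself, so this comparison favours short loops by construction. No whole protein-coding gene lay between the anchors of 68.6% of short loops in estrus and 68.8% in diestrus. Loops inside a gene were weaker than short loops as a whole, with medians of 2.31 (2.26 to 2.39) in estrus and 2.38 (2.31 to 2.41) in diestrus, and 68.0% of them in estrus and 66.8% in diestrus were found in the other list. Loops with gene ends in both anchors were found in 82.1% of cases in estrus and 79.7% in diestrus, and those with none in 71.7% in estrus and 70.7% in diestrus.

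**Figure D4:**
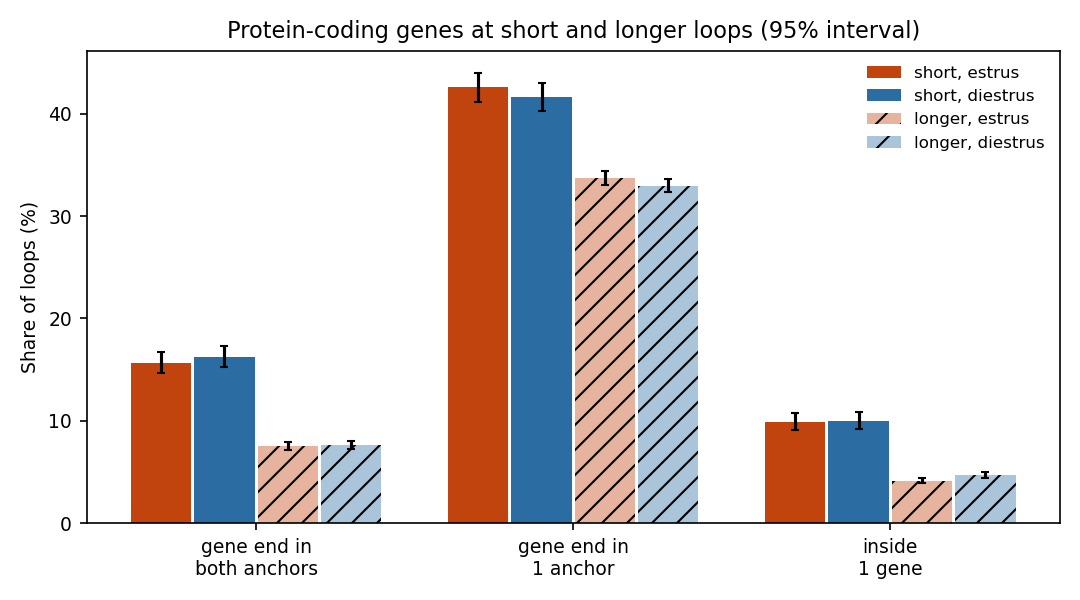
Share of loops (percent, with 95% Clopper-Pearson intervals) with a protein-coding gene end in both anchors, in 1 anchor, or lying inside 1 gene, for short and longer loops of the estrus and diestrus libraries. Short loops stand above longer loops in all 3 classes, although longer loops can lie only inside longer genes.

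The strongest loops that joined different genes lay in identical bins in the stages. The 100-kb loop from Plbd2 to Iqcd and Rita1 on chromosome 5 spans Slc8b1 and Tpcn1, an ion-channel gene, and held 947 contacts at a strength of 8.53 in estrus and 1051 at 8.74 in diestrus. Hdac11, the gene of a histone deacetylase, was joined to Fbln2, which encodes the matrix protein fibulin 2, with 463 contacts at 9.12 in estrus and 471 at 8.11 in diestrus. Mrps11, a mitochondrial ribosomal protein gene, was joined to Aen, a nuclease gene induced by p53, with 447 at 8.32 in estrus and 517 at 8.78 in diestrus. The further pairs were Capn9 with Ttc13, Gsto2 with Cfap58, and Odf3 and Scgb1c1 with Cox8b, the last with 904 contacts in estrus and 965 at a strength of 8.33 in diestrus.

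Among loops joining the 2 ends of 1 gene, the strongest lay at Flvcr2, which encodes a membrane transporter, with 454 contacts at 5.67 in estrus and 506 at 6.18 in diestrus. Slc43a2, an amino acid transporter gene, had 600 at 5.60 in estrus and 650 at 6.10 in diestrus. Rara, the gene of a retinoic acid receptor, had 673 contacts (strength 5.46) in estrus and 740 (5.51) in diestrus over 50 kb, from the anchor it shares with Cdc6 to that it shares with Gjd3. Neurl1a, Rab27a and Znrf1 had strengths of 5.66, 5.96 and 4.63 in estrus and 5.87, 5.07 and 5.01 in diestrus. These loops ran along the whole of a gene, and all 6 lay in identical bins in the stages.

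Inside single genes, Pde4d, a cyclic AMP phosphodiesterase gene of 1302 kb, held the most, with 4 short loops in estrus, at strengths of 1.98 to 3.68, and 4 in identical bins in diestrus, at 1.94 to 3.59. Dst, the gene of a large cytoskeletal linker protein, held 4 in estrus and 3 in diestrus, of which the strongest had 691 contacts at 6.54 in estrus and 673 at 7.11 in diestrus. Nfia, a transcription factor gene, also held 4 in estrus and 3 in diestrus, with 2 found in both. Vps13b, for a lipid-transfer protein, held 2 in estrus and 5 in diestrus. Its 3 further diestrus loops spanned 50 kb with strengths of 2.05, 2.08 and 2.35, all below the median of short loops. Kalrn and Med12l held 3 each in either library, all found in both lists.

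Start sites, like gene ends, lay in both anchors of a larger share of short than of longer loops. On the 19 chromosomes with promoters in the table, 7.09% (6.39 to 7.85%) of short loops in estrus and 7.60% (6.87 to 8.38%) in diestrus had a start site in both anchors, against 3.39% (3.14 to 3.66%) in estrus and 3.68% (3.42 to 3.95%) in diestrus for longer loops. Sharing differed less by start sites than by gene ends. Short loops with a start site in both anchors were found in 77.3% of cases in estrus and 75.7% in diestrus, and those with none in 74.5% in estrus and 74.9% in diestrus. Their median strength was 2.49 in estrus and 2.45 in diestrus, below that of all short loops. In 13 loops of each library the start sites belonged to 1 gene. They involved 13 genes in estrus and 12 in diestrus, 8 of them in both. Those 8, named after their values were seen, were Greb1, Adam19, a metalloprotease gene, Sertad2, Tnrc6b, Syne1, Tbc1d14, Tspan9 and Dab2ip.

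Greb1 had 2 short loops in each library, in identical bins, which met at the anchor of its upstream promoter on chromosome 12. The 90-kb loop held 613 contacts (565 to 664) in estrus and 612 (564 to 662) in diestrus, at strengths of 9.14 in estrus and 9.23 in diestrus, more than 3 times the median short loop. The 50-kb loop, which joined the upstream promoter to a start site within the gene, held 385 (347 to 425) at 2.66 in estrus and 405 (367 to 446) at 3.05 in diestrus. The counting intervals of contacts overlapped between the stages at both Greb1 loops. The centred log2 ratio of strength was -0.03 (-0.19 to 0.14) at the 90-kb loop. At the 50-kb loop it was -0.21 (-0.42 to -0.0054), an interval that only just left out no difference.

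At Esr1, which lies from 4611989 to 5005633 on chromosome 10 (mm10), the estrus list had 1 short loop with an end of the gene in an anchor. It joined the 2 printed promoters over 100 kb, with anchors starting at 4610001 and 4710001, and held 698 contacts (647 to 752) at a strength of 4.68. The diestrus list had no loop within 1 bin of it. Its nearest loop kept the right anchor but began at 4630001, spanned 80 kb within the gene and held 850 contacts (794 to 909) at 3.803. A further diestrus loop of 60 kb ran from 4550001 to the anchor of the left promoter, with 276 contacts (244 to 311) at 1.96, and the estrus list had none within 1 bin of it. The stages thus shared the anchor of the downstream Esr1 promoter, while the bin called at the other end differed by 20 kb.

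Pgr, which encodes the progesterone receptor, had 1 short loop in each library, in identical bins, ending at the anchor that starts at 8960001 on chromosome 9. That anchor holds the end of the gene at 8968611. The other end of the gene, at 8898900, lay outside the left anchor, which starts at 8900001. The loop spanned 60 kb and held 319 contacts (285 to 356) at 2.03 in estrus and 398 (360 to 439) at 2.34 in diestrus, so diestrus had more contacts and the intervals were apart. These contacts are not scaled, and contacts at all called loops also summed to more in diestrus, 4533525, than in estrus, 4153485. The centred log2 ratio of strength at the Pgr loop was -0.22 (-0.44 to -0.0033), an interval that only just left out no difference. Epas1, the gene of a hypoxia-inducible factor, had 1 in each over 50 kb, with 280 (248 to 315) in estrus and 285 (253 to 320) in diestrus, which overlap. The Pgr and Epas1 loops, with strengths of 2.03 to 2.34, lay below the median of short loops in both libraries.

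Among short loops called in both libraries, the 8 strongest with a gene end in an anchor were these. Arhgap22, which encodes a GTPase-activating protein, stood at the left of a 90-kb loop on chromosome 14 with 773 contacts (strength 12.3) in estrus and 760 (11.9) in diestrus. Mrs2, the gene of a mitochondrial magnesium channel, had 613 (11.7) in estrus and 650 (12.2) in diestrus. Nf1, the neurofibromin gene, had 478 (10.03) in estrus and 539 (11.4) in diestrus, and the anchor that holds ends of the catalase gene Cat and of Elf5, an epithelial transcription factor gene, had 584 (10.6) in estrus and 540 (10.4) in diestrus. The counting intervals of the stages overlapped in these 4. Aadat, an aminotransferase gene, had 320 (8.80) in estrus and 447 (11.6) in diestrus, with the intervals apart. A 90-kb loop ending at Fam131c spanned Epha2, an ephrin receptor gene, at 9.57 in estrus and 10.1 in diestrus, and a 70-kb loop from Dhx34 spanned C5ar1 and C5ar2, the receptors of complement fragment C5a, at 9.55 in estrus and 9.20 in diestrus. Rab36 had 10.1 in estrus and 9.44 in diestrus. This ranking rests on the contacts expected from the ring. Over the largest of the caller's 4 expected values, the Nf1 loop had only 4.17 in estrus and 5.24 in diestrus. By that measure the Arhgap22 loop had 9.36 in estrus and 9.09 in diestrus.

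In all, 3967 protein-coding genes (18.3% of 21631) had an end in an anchor of a short loop in estrus, 3977 (18.4%) in diestrus and 4750 (22.0%) in either. Of these 3194 had one in both libraries. The number of short loops at a gene was equal in the stages for 2856 genes, larger in estrus for 928 and larger in diestrus for 966, and it differed by 2 for 64 genes and by 3 for none. The 10 genes with most short loops, summed over both libraries and with ties broken by contacts, had 3 in estrus and 3 in diestrus each, all found in both lists. Ccdc6, with 4 in estrus and 2 in diestrus, and Brf1, with 2 in estrus and 4 in diestrus, had the same sum and fewer contacts. Several of the 10 sit together on chromosome 7, where Cox8b, for a muscle subunit of cytochrome c oxidase, shared loops with Ifitm2 and Ifitm5. Both belong by name to the family of interferon-induced transmembrane protein genes. The loop that left Ifitm2 and spanned Ifitm1, Ifitm3 and Ifitm6 held 1123 contacts at 5.09 in estrus and 1277 at 4.96 in diestrus. Wwtr1, which encodes the Hippo effector TAZ, had loops of 591, 362 and 287 contacts in estrus and 715, 412 and 327 in diestrus. The others were Irf2bp2, Cables2, Stk10, Copz2, Mrpl38 and Trim65.

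Gene groups differed in how many members had a short loop in either library, which was 22.0% over all protein-coding genes. Extracellular matrix genes had one at 22 of 35 members (62.9%), with 24 loops in estrus and 25 in diestrus. The collagen genes Col6a2 and Col6a1 were joined over 100 kb with 576 contacts at 5.86 in estrus and 808 at 5.52 in diestrus. Col1a2 had a 90-kb loop with 636 at 5.30 in estrus and 840 at 5.94 in diestrus. Col1a1, for the other chain of type I collagen, had a 60-kb loop with 615 at 4.16 in estrus and 804 at 4.45 in diestrus. Contacts, which are not scaled, were higher in diestrus at these 3 loops, with the intervals apart. The share of all short loops for which this held is not given. The centred log2 ratio of strength was -0.18 (-0.33 to -0.03) at this Col1a2 loop, while at Col1a1, -0.11 (-0.27 to 0.04), and at Col6a2, 0.07 (-0.09 to 0.23), the interval included no difference. The same was so for a second loop of Col1a2, with strengths of 2.24 in estrus and 2.03 in diestrus, and a second of Col6a2, with 2.64 in estrus and 2.71 in diestrus. Hypoxia genes had short loops at 11 of 20 members (55.0%), smooth muscle markers at 9 of 18, stromal markers at 7 of 16 (43.8%), and steroid receptors and coregulators at 8 of 19 (42.1%). Epithelial markers had them at 3 of 18, endothelial markers at 4 of 16 and immune cell markers at 2 of 18. The lists were chosen by hand with earlier results known, and gene density around their members was not matched, so their shares are descriptions.

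Estrogen-responsive uterine genes had 15 short loops in estrus and 13 in diestrus at 11 of 32 members. Aqp5, a water channel gene, had 2 in each library, in identical bins. Cdkn1a, the gene of the cell-cycle inhibitor p21, was joined to Srsf3 with 937 contacts (878 to 999) in estrus and 1047 (984 to 1112) in diestrus, and had a second loop of 70 kb, with 357 contacts, in the estrus list alone. Progesterone-responsive and implantation genes, taken as 1 list, had 9 in estrus and 10 in diestrus at 9 of 33 members. Of these Zbtb16, a zinc finger gene known to be induced by progesterone in human endometrium, had a 100-kb loop with 246 contacts (216 to 279) at 2.37 in estrus and 423 (383 to 465) at 3.09 in diestrus, with the intervals apart. Gli2, for a Hedgehog effector, had 2 loops in each library. All but 2 estrus loops of the first list, and all loops of the second, were found in the other stage.

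Genes of the loop machinery had a short loop at 6 of 18 members (33.3%), with 3 loops in estrus and 7 in diestrus. Over all protein-coding genes there were 2898 such loops in estrus and 2883 in diestrus. The direction was kept under the 5 other settings for this list, but the difference was 2 loops without chromosome 7, against 4 with it. Ctcf itself had none in estrus and 2 in diestrus, with 142 contacts (120 to 167) at 2.35 and 230 (201 to 262) at 2.03, and Zfp143, a looping cofactor gene, had none in estrus and 2 in diestrus, at 2.51 and 2.66. These 4 loops lay around or below the median strength of short loops in diestrus, 2.61. Stag2 and Smc1a, genes of cohesin subunits, had 1 in each.

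Large gene families ranged widely. Of 1110 olfactory receptor genes 21 (1.89%) had a short loop, as did 3 of 355 vomeronasal receptor genes (0.845%) and 7 of 109 keratin and keratin-associated genes (6.42%). Ribosomal protein genes had them at 31 of 100 members, solute carrier genes at 82 of 375 and zinc finger genes named Zfp at 88 of 397, close to the 22.0% of all genes for the last 2 lists. The Zfp genes had 55 short loops in estrus and 69 in diestrus, with 10 to 14 fewer in estrus under the 5 other settings, and 14 members had more in estrus and 26 more in diestrus. Over all protein-coding genes there were 2898 in estrus and 2883 in diestrus, with 928 genes higher in estrus and 966 in diestrus. Zfp genes that lie together can share a loop, as 65 members had the 55 estrus loops and 76 the 69 diestrus loops, so members are not separate cases. In the Hoxb cluster, which holds homeobox genes of body patterning, a 50-kb loop joined the anchor of Hoxb3, Hoxb5 and Hoxb6 to that of Hoxb2, with 363 contacts at 2.31 in estrus and 430 at 2.65 in diestrus. The chemokine gene Cxcl12 had a 90-kb loop with 440 contacts (400 to 483) in estrus and 700 (649 to 754) in diestrus, at strengths of 3.91 in estrus and 4.53 in diestrus.

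Along the chromosomes short loops followed the genes. Chromosome 11 had the most per Mb, 3.26 in estrus and 3.13 in diestrus, and the X chromosome the fewest, 0.629 in each. Over the 20 chromosomes, short loops per Mb and genes per Mb correlated with Pearson's r = 0.82 in estrus and 0.84 in diestrus (Spearman's coefficient 0.95 in estrus and 0.93 in diestrus). For longer loops r was 0.23 in estrus and 0.26 in diestrus (Spearman's coefficient 0.25 in estrus and 0.15 in diestrus). These are descriptions, since the chromosomes of a library share its depth and both libraries the same genes. Chromosome 18 had 126 short loops in estrus and 151 in diestrus, and its share found in the other list was 76.2% (67.8 to 83.3%) for estrus loops and 62.9% (54.7 to 70.6%) for diestrus loops, whose intervals overlap. These shares too go with the numbers of loops listed.

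Of 2568 windows of 1 Mb 943 held none in estrus and 942 in diestrus, while 365 in estrus and 372 in diestrus held at least 5, with 46.4% of short loops in estrus and 47.3% in diestrus. Windows without a protein-coding gene had a mean of 0.0982 short loops in estrus and 0.144 in diestrus, those with 10 to 19 genes 3.39 in estrus and 3.33 in diestrus, and those with 20 or more 4.68 in both. Longer loops peaked in windows of 5 to 9 genes, at 9.13 in estrus and 9.95 in diestrus, and were at 7.21 in estrus and 7.36 in diestrus in windows of 20 or more. The mean of short loops thus grew with gene number through all 5 classes in both stages, and that of longer loops did not.

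**Figure D5:**
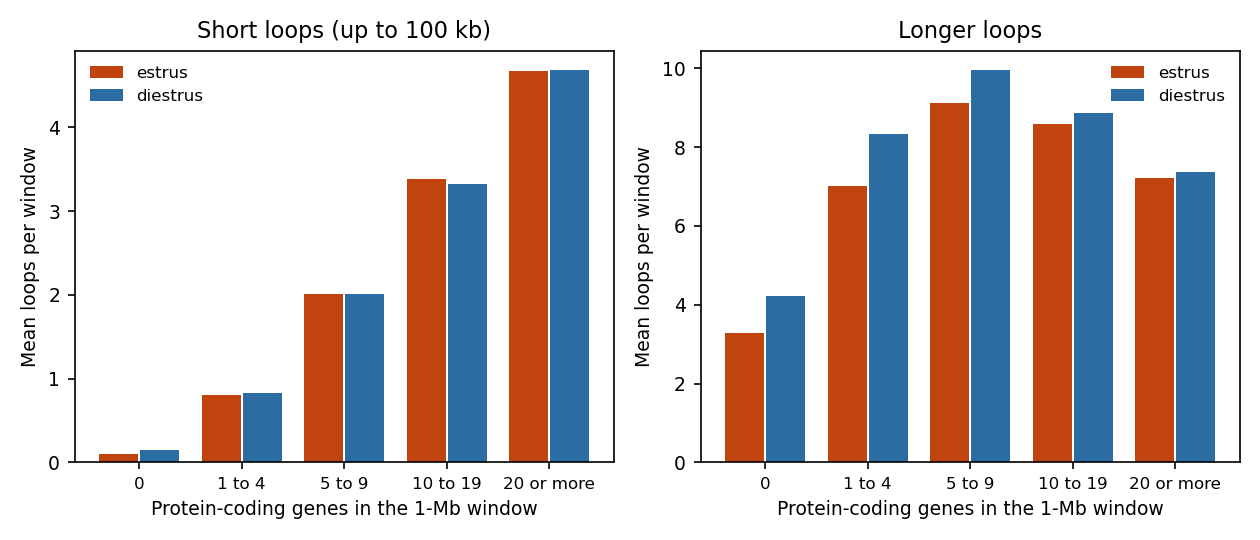
Mean number of short loops (left) and longer loops (right) per 1-Mb window in the estrus and diestrus libraries, by the number of protein-coding genes in the window. Short loops reach 4.68 in both libraries in windows of 20 or more genes, and longer loops peak at 9.13 in estrus and 9.95 in diestrus in windows of 5 to 9 genes.

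Ranked by their short loops summed over both libraries, the 6 fullest windows differed by at most 1 loop between the stages. The window with most in diestrus, 12, had 7 in estrus and lay from 128 to 129 Mb on chromosome 10. The window from 101 to 102 Mb on chromosome 11 held 11 short loops in estrus and 10 in diestrus, with 43 genes, among them Becn1, an autophagy gene, the DNA repair gene Brca1, and Hsd17b1, which encodes an enzyme that makes estradiol. That from 97 to 98 Mb on the same chromosome, with Arhgap23, Lasp1 and Plxdc1, also held 11 in estrus and 10 in diestrus. On chromosome 7, the window from 16 to 17 Mb held 11 in estrus and 10 in diestrus, with Zc3h4, the calmodulin gene Calm3 and Ptgir, the gene of the prostacyclin receptor. That from 45 to 46 Mb held 10 in each, with 66 genes, among them the apoptosis gene Bax. The other 2 of the 6 fullest each held 10 in estrus and 11 in diestrus, from 136 to 137 Mb on chromosome 5 with Cux1 and Col26a1, and from 28 to 29 Mb on chromosome 17 with the kinase gene Mapk14 and the nuclear receptor gene Ppard.

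Short loops shared anchors with each other and with longer loops. An anchor was shared with another short loop by 26.6% of them in estrus and 27.5% in diestrus, which formed 90 groups of at least 3 loops in estrus and 87 in diestrus. A group with 5 loops in estrus and 6 in diestrus lay from 41520001 to 41710000 on chromosome 4 at Cntfr, the gene of a cytokine receptor. The group from Odf3 and Scgb1c1 through Cox8b to Ifitm3 on chromosome 7 also had 5 loops in estrus and 6 in diestrus. Its 5 estrus loops lay in the same bins as 5 of the diestrus loops, and the remaining diestrus loop held 190 contacts at a strength of 2.04. An anchor was shared with a longer loop by 75.2% in estrus and 77.4% in diestrus, and those loops were stronger, with medians of 2.73 (2.69 to 2.78) in estrus and 2.67 (2.64 to 2.71) in diestrus, than the rest, at 2.40 (2.37 to 2.44) in estrus and 2.39 (2.34 to 2.42) in diestrus. Most short loops, 90.9% in estrus and 91.6% in diestrus, lay within a longer loop of up to 2 Mb. The share for other stretches of the same length was not measured, so it is not known whether this is particular to short loops.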

How the data were processed

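Hi-C libraries were made with the Arima kit, 1 per stage, per the labels' protocols, and grouped by the stage in the label. Juicer and mm10 are named in the submitters' processing notes. What aligned the reads, with which versions and caller settings, is not stated in the sources used here. The contacts observed per loop and the merged pixels are counts made by the authors, as the file headers name them. Beside them are deposited the caller's q-values and, as a signal in units of raw contacts, the contacts that the authors' caller expected from 4 neighbourhoods. Anchor positions are of another kind (other: bases), as deposited. Full sequencing depth is not used here. Contacts at called loops summed to 4153485 in estrus and 4533525 in diestrus. Reads without molecular identifiers are not independent molecules.

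Loops of at most 100 kb were taken in Python 3.11.15 (pandas 2.3.3, scipy 1.17.1). Strength was observed over donut-expected contacts. Mutually nearest loops within 1 bin were paired, and log2 ratios were centred on their median over all 18870 pairs, or over all 16240 pairs for those in identical bins. Intervals were exact Poisson for contacts, Clopper-Pearson for shares, from order statistics for medians and exact conditional for ratios, where expected contacts were taken as exact. Genes came from a RefSeq table of GRCm38.p6 without strand, so either gene end was used, with start sites from its promoter table, which does not cover chromosome 18.

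The members, lists and rules were chosen with earlier results of these data known. The rule for named genes passed over predicted genes and took the 10 with most short loops, the 8 strongest loops found in both, the 5 largest ratios in each direction and the 5 strongest of each single list. It also took the 6 fullest windows, the 6 strongest loops joining different genes, the 6 joining both ends of 1 gene and the 6 genes with most loops inside. Up to 4 members of each list, and Esr1, Pgr and Epas1, completed it. Ranked loops had at least 50 contacts and a gene end in an anchor. Matching, ratios and gene assignment were tried on data with planted shifts, folds and gene ends. The shifts lay within the tolerance and the loops were built on gene ends, so this checks the code and not the loops. Other settings changed the q-value and length limits, tolerance, expected contacts, gene positions and windows.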

Additional observations from a re-analysis of the deposited data

How the results depend on the processing

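No paired analysis was possible because each stage had 1 library and the labels carry no replicate numbers. Of 124 values recomputed for the main comparisons, 98 stayed within their interval or within 1.5 times the count, and 26 did not. The share found in the other list was 68.2% in estrus and 68.2% in diestrus with identical bins, and 78.4% in estrus and 78.1% in diestrus with 2 bins. Median strength was 2.56 in estrus and 2.53 in diestrus up to 80 kb, 2.71 in estrus and 2.66 in diestrus up to 120 kb, 2.12 in estrus and 2.11 in diestrus over the largest of the 4 expectations, and 2.56 in estrus and 2.54 in diestrus over the bottom-left one. Pairs past 1.5-fold numbered 11 in estrus and 10 in diestrus in identical bins, 64 in estrus and 34 in diestrus by contacts over the library total, and 29 in estrus and 15 in diestrus up to 80 kb, against 39 in estrus and 25 in diestrus as reported. Gene ends lay in both anchors of 16.9% of loops in estrus and 17.4% in diestrus up to 80 kb, 28.8% in estrus and 28.5% in diestrus within 5 kb of an anchor, and 26.7% in estrus and 27.4% in diestrus with all annotated genes. Windows with at least 5 short loops numbered 187 in estrus and 189 in diestrus up to 80 kb, and 2-Mb windows with at least 10 numbered 113 in estrus and 115 in diestrus. Other limits, tolerances and gene positions change by construction which loops are counted, and for the other scalings the cause was not tested. Of 260 list counts 237 stayed within 1.5 times. The direction between stages turned under at least 1 setting for immediate early, extracellular matrix, olfactory receptor, serpin and solute carrier genes. Loops near the lowest strength listed, 1.75, were found least often in the other library, which limits the sharing values.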

Other observations

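Some windows of 1 Mb differed in their number of short loops, and are given as values. From 134 to 135 Mb on chromosome 5, which holds Eln, the elastin gene, and Limk1, a kinase gene that regulates actin, estrus had 7 short loops, 3 of them found in diestrus, and diestrus had 2, both found in estrus. From 158 to 159 Mb on chromosome 2, at the transglutaminase gene Tgm2, there were 10 in estrus and 6 in diestrus. From 180 to 181 Mb on chromosome 1, at Itpkb, there were 9 in estrus and 5 in diestrus. In the other direction, estrus had 7 and diestrus 12 from 128 to 129 Mb on chromosome 10, at Smarcc2, which encodes a subunit of the SWI/SNF chromatin remodeller. On chromosome 7, there were 5 in estrus and 9 in diestrus from 29 to 30 Mb, in a cluster of zinc finger genes, and 5 in estrus and 9 in diestrus from 110 to 111 Mb, at the adrenomedullin gene Adm and Zfp143. In all, 88.4% of windows differed by at most 1 loop. The median window held only 1 short loop in each library, and 36.7% of windows held none in the estrus list and 36.7% none in the diestrus list. The share of 88.4% therefore says little about how alike the stages were.

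A few short loops rested on few contacts. Fewer than 50 were counted at 28 loops in estrus (0.563%) and 27 in diestrus (0.542%). The highest strength among short loops in estrus, 13.3, belonged to such a loop, on chromosome 6 from 48300001, with 16 contacts over 1.21 expected, and it was not found in diestrus.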
